A study of Mus musculus with 10 samples.

Results

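The genes described here are 10 of the 15075 in the expression table of interscapular brown adipose tissue (iBAT), chosen by symbol from their known roles: Plin1, Plin2, Plin3, Plin4, Plin5, Cidea, Cidec, Fitm1, Fitm2 and Bscl2. All 10 were found, with 1 RefSeq transcript each. RNA of 5 Control and 5 AdCKO mice was sequenced, each mouse giving 1 library. Adipoq-Cre in the AdCKO mice is active in adipocytes and acts on a homozygous floxed Crls1 allele, whose exon 4 lies between loxP sites, so that the adipocytes lose cardiolipin synthase while the other cells of the tissue keep it. Control mice are homozygous for the same floxed allele and have no Cre, although their labels read wild type. All mice were C57BL/6 animals of 20 weeks kept at room temperature, and the sex is not given in the sources used here. The comparison asks what the loss of Crls1 in adipocytes, and with it of cardiolipin, does to the transcripts of the droplet surface.

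Lipid droplets store triglyceride in a core that is closed off from the cytosol by a single layer of phospholipid, and the proteins bound to that layer decide how the store is built, merged and opened. The perilipins are the coat: PLIN1 shields the droplet of fat cells and docks the lipolytic machinery on adrenergic stimulation, PLIN2 coats droplets in most cell types, and PLIN5 is typical of oxidative tissues, where it sits at contacts between droplets and mitochondria. CIDEA and CIDEC (also called FSP27) move lipid between touching droplets and so enlarge them, the FIT proteins act where droplets bud from the ER, and seipin, the product of Bscl2, organizes the site of budding. In brown fat, whose droplets are small and many, CIDEA, PLIN5 and PLIN1 are known as abundant products.

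Values are normalized reads per kb of counted exon, which the authors scaled between libraries, so levels of different genes can be set side by side. Differences are log2 fold changes of (value + 1), AdCKO minus Control, with the standard error (SE) and the adjusted p (Benjamini-Hochberg) from limma, fitted on 11244 genes whose mean reached 10 in Control or AdCKO, and genes with an adjusted p below 0.01 are called higher or lower. Crls1 itself stood at 1060 ± 191 in Control against 217 ± 26.4 after the deletion, with no overlap between groups of 5. Of all tested genes 53.6% were called, 25.6% higher and 28.0% lower, so a call alone does not set a gene apart here. Of 8 adipocyte genes, all present in every library, 2 were lower (Adipoq and Pck1), 2 higher (Retn and Lpl) and 4 not called. The most abundant, Fabp4, missed the call (log2 fold change -0.44, limma adjusted p = 0.0205), yet its groups did not overlap. Summed, the 8 genes fell without overlap, from 181055 to 199503 in Control to 136302 to 154134 in AdCKO libraries, and Fabp4 made up most of the sum. The brown adipocyte gene Ucp1 was present in every library too. Summed over 12 macrophage genes the level was 738.9 to 2364 in Control libraries and 8524 to 11646 in AdCKO libraries (12 of 12 genes called higher), and for 7 fibroblast genes it was 1259 to 1624 and 4267 to 6527. The 12 skeletal muscle genes summed to between 473.8 and 510.2 in Control, to 296.9 and 305.5 in AdCKO replicates 3 and 5, and to 7147, 27432 and 10519 in AdCKO replicates 1, 2 and 4, so those 3 libraries stand apart and results are also given without them. In whole tissue, fewer cells of a type and less RNA per cell cannot be told apart.

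Of the 10 genes 7 were lower in AdCKO iBAT (Plin1, Plin3, Plin5, Cidea, Cidec, Fitm2 and Bscl2), 1 was higher (Plin2), and Plin4 and Fitm1 were not called. The share of all tested genes is 28.0% for lower calls and 25.6% for higher ones. The minimum level was reached by 9 of the genes in both groups, while Fitm1 reached it only through AdCKO. The median log2 fold change of the 10 was -0.58, against -0.01 over all tested genes. Groups did not overlap for 7 of the 10, 6 lower and 1 higher, where 50.9% of all tested genes had no overlap (26.4% lower and 24.5% higher). Without AdCKO replicates 1, 2 and 4, 6 were lower and 1 higher, and Plin3 was the call that was lost (log2 fold change -0.31, limma adjusted p = 0.17). That setting sets only AdCKO replicates 3 and 5 against the Control libraries, and of 11097 tested genes 2191 were lower and 2083 higher.

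**Figure D1:**
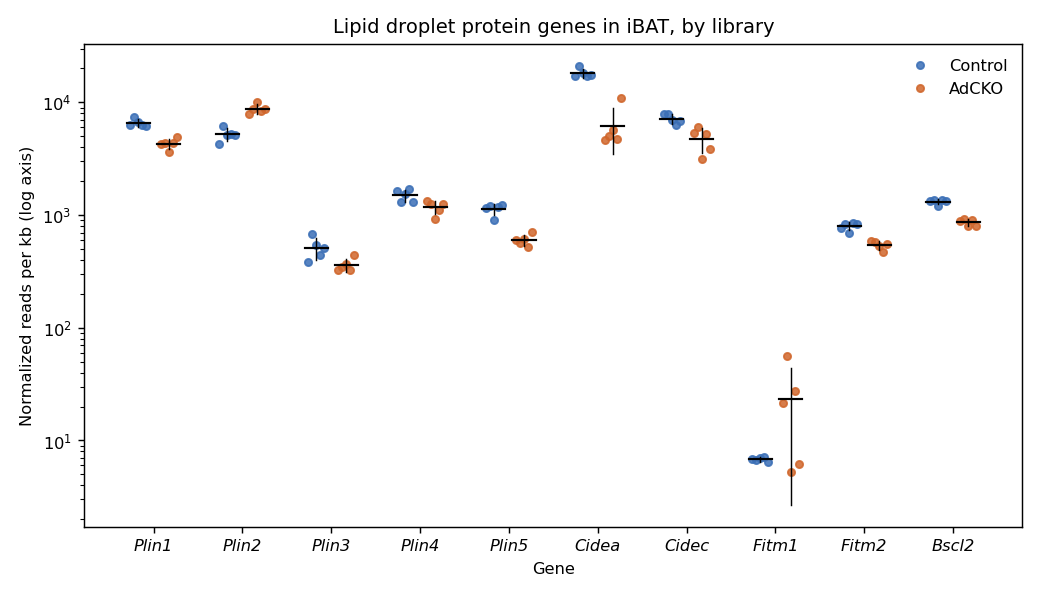
Normalized reads per kb (log axis) of the 10 genes in 5 Control and 5 AdCKO libraries, with each point a library, horizontal lines the mean and vertical lines the SD. Plin2 is the gene whose AdCKO points all lie above its Control points, Cidea falls furthest, and Fitm1 spreads from 5.26 to 55.8 within AdCKO.

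Among the perilipins, Plin2 and Plin1 changed places. Plin2 (NM_007408, mm9 chr4:86302469-86315963, minus strand, 8 exons) read 4304, 6203, 5142, 5259 and 5083 in Control replicates 1 to 5 and 7862, 8730.1, 10071, 8359 and 8781 in AdCKO replicates 1 to 5. The lowest AdCKO library lay above the highest Control library. The means were 5198 ± 676 and 8761 ± 819.6 (mean ± SD of 5 mice each), a log2 fold change of 0.76 (SE 0.11, with 6.36e-05 as the adjusted p by limma). By mean level Plin2 moved from rank 90 to rank 16 among the 15075 genes, which made it the highest of the 10 in AdCKO iBAT. A better rank alone does not mark a gain in level. Plin1 moved from rank 70 to 52 and Cidec from 62 to 42, although both were called lower. Cidea, Plin3, Plin5, Fitm2 and Bscl2 moved down in rank.

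Plin1 (NM_001113471, mm9 chr7:86866050-86877662, minus strand, 9 exons), the coat protein of the mature fat cell, went the other way. Its values were 6317, 7444, 6732, 6265 and 6211 in Control and 4300.2, 4329, 3628, 4353 and 4922 in AdCKO libraries, again without overlap. AdCKO iBAT kept 65.3% of the Control level (log2 fold change -0.62, SE 0.10, limma adjusted p = 0.000127). In Control iBAT Plin1 was above Plin2 in 5 of 5 libraries, and in AdCKO iBAT Plin2 was above Plin1 in 5 of 5.

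The ratio of Plin2 to Plin1 within a library does not change when all genes of that library are multiplied by the same factor. Quantile normalization can change it, and the ratio was not recomputed under that setting. The ratio lay between 0.681 and 0.839 in Control libraries but between 1.78 and 2.78 in AdCKO, a difference of 1.38 on the log2 scale (exact permutation test, two-sided, p = 0.0079, adjusted p = 0.02 over 5 ratios). The ratio of Fitm1 to Fitm2, given below only as a description, had the same p, which lowers this adjusted p. Without 1 added to the values, the same test gave an adjusted p of 0.04. With 5 mice against 5, 0.0079 is the smallest p this test can give. All p-values here rest on these mice as the replicates. Those of limma also draw on the variance of the other tested genes. AdCKO replicate 3 had the highest ratio, with the most Plin2 and the least Plin1 of its group.

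Plin5 (NM_025874, mm9 chr17:56251024-56256971, minus strand, 9 exons), the perilipin of oxidative tissues, fell furthest of the perilipins. Control libraries read 1158, 1205, 913.1, 1176 and 1229 and AdCKO libraries 599.2, 569.6, 607.6, 524.3 and 700.6. All AdCKO values were lower than the lowest Control value, that of replicate 3. The mean fell to 52.8% of Control (log2 fold change -0.92, SE 0.10, limma adjusted p = 5.78e-06). Its ratio to Plin1 was 0.136 to 0.198 in Control and 0.12 to 0.167 in AdCKO, so the ranges overlapped and the difference of -0.30 was not past 0.05 (exact permutation p = 0.063, adjusted p = 0.079). A fall of Plin5 beyond that of Plin1 was therefore not shown.

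Plin3, which coats small and newly formed droplets in many tissues, was at 511.4 ± 109.1 in Control and 361.4 ± 47.7 in AdCKO (SD, n = 5). Its groups overlapped, since AdCKO replicate 5 at 439.9 exceeded Control replicate 1 at 384.3. The log2 fold change of -0.48 (SE 0.14, with 0.0083 as the adjusted p by limma) was the least firm of the calls: it lost the call without Control replicate 2, 3 or 5 or AdCKO replicate 1, 2, 3 or 4, with log2 fold changes of -0.50 to -0.38 and limma adjusted p up to 0.0216. The ratio of Plin3 to Plin1 was 0.0608 to 0.0905 in Control and 0.0741 to 0.102 in AdCKO (difference 0.13, exact permutation p = 0.35, adjusted p = 0.35).

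Plin4, which coats droplets in white fat and muscle, was at 1491.5 ± 185.0 and 1173.6 ± 158.4 and was not called (log2 fold change -0.35, SE 0.11, limma adjusted p = 0.0172). The range was 1297 to 1692 in Control and 927 to 1329 in AdCKO, and the highest AdCKO value, 1329 in replicate 1, overlapped the Control range. Plin4 and Plin5 are neighbours on chromosome 17, in the same orientation and 1798 bases apart.

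Summed over Plin1 to Plin5, the perilipin level per kb was 13801 to 16827 in Control and 14419 to 16101 in AdCKO libraries. The means were 14931 ± 1145 and 15202 ± 683 (SD, n = 5 each; exact permutation p = 0.66), so the difference was smaller than the spread between mice. This holds under the authors' scaling and not under the others. With library totals made equal, the sum was 11732 to 13679 in Control and 17207 to 19125 in AdCKO, a log2 fold change of 0.51 where the median of all tested genes was at 0.47. After quantile normalization it was 11923 to 12827 and 19707 to 23414 (log2 fold change 0.83). Neither pair of ranges overlapped, and the exact permutation test gave p = 0.0079 for each. The makeup of the sum also changed. Plin2 held 34.7% ± 2.13 of the sum in Control and 57.6% ± 4.11 in AdCKO. Plin1 dropped from 44.2% ± 1.44 to 28.4% ± 2.95, Plin5 from 7.64% ± 1.00 to 3.94% ± 0.31 and Plin3 from 3.40% ± 0.50 to 2.37% ± 0.21. For these 4 genes the ranges did not overlap and the exact permutation test gave p = 0.0079 (adjusted p = 0.0099 over the 5 perilipins). Plin4 had 10.1% ± 1.70 and 7.74% ± 1.19 (exact permutation p = 0.063, adjusted p = 0.063), and it passed 0.05 without Control replicate 2 (a difference of -2.91 percentage points) or AdCKO replicate 1 (-2.70). Shares within a library do not change when all its genes are multiplied by the same factor. Quantile normalization is not such a scaling, and the shares were not recomputed under it. They also move together, since the gain of Plin2 lowers the others.

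**Figure D2:**
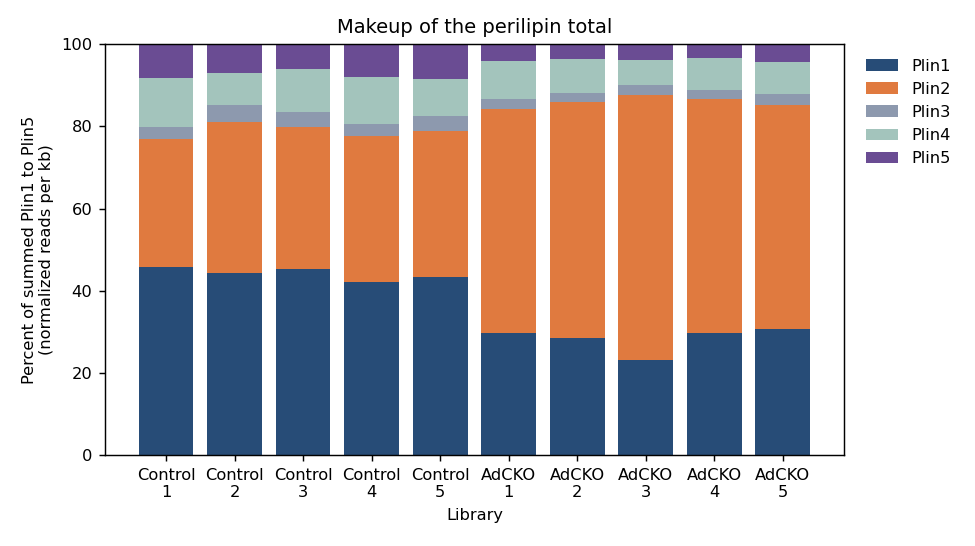
Percent of the summed normalized reads per kb of Plin1 to Plin5 that each perilipin held, 1 bar per library. Plin2 (orange) takes 31.2% to 36.9% of the bar in the 5 Control libraries and 54.5% to 64.5% in the 5 AdCKO libraries, and Plin1 (dark blue) 42.2% to 45.8% and 23.2% to 30.6%.

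Macrophages also express Plin2. The summed macrophage genes given above did not overlap between the groups, and of 9 genes of lipid-laden macrophages 8 were higher, with sums of 905.4 to 1578 in Control and 4733 to 7806 in AdCKO. Among AdCKO libraries the lowest sum of macrophage genes, 8524 in replicate 5, came with a Plin2 value of 8781, while the highest, 11646 in replicate 2, came with 8730.1. The part of these cells in the level of Plin2 was not tested.

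The promoters of the perilipins at the centre of this shift are shown for Plin2, which rose, and for Plin1 and Plin5, which fell. Each stretch is the 250 bases before the annotated transcript start from RefSeq on GRCm38.p6, 5′ to 3′ on the strand of the gene, with CCAAT and TATAA on either strand in capitals. It lies at chr4:86670060-86670309 for Plin2, chr7:79732777-79733026 for Plin1 and chr17:56117549-56117798 for Plin5, all on the minus strand.
Plin2: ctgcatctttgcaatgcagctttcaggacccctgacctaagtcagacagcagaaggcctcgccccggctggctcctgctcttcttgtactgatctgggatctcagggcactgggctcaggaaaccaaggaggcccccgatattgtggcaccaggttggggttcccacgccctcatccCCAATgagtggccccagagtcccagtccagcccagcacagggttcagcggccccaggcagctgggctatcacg
Plin1: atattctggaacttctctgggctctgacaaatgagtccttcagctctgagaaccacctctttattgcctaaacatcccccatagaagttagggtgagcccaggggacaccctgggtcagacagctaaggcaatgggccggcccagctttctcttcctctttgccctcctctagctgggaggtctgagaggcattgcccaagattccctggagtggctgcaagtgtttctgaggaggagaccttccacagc
Plin5: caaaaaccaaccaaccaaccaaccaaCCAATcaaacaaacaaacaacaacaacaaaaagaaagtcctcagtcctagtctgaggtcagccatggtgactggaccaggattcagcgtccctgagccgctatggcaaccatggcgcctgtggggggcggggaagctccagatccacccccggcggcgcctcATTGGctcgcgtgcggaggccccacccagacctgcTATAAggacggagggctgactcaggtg
Plin5 has TATAA starting 27 bases before the start site and CCAAT letters at 224 and 62 bases, Plin2 has CCAAT at 73 bases, and Plin1 has neither. Over windows of 250 bases before to 50 after the start, 24.9% of 32851 promoters hold TATAA and 37.4% hold CCAAT, as for all motifs searched on both strands. Such windows were given for the genes other than Cidea, 13 windows for 9 genes, so nothing here bears on the promoter of Cidea. None of the 13 held the direct repeat read by PPAR and RXR (0.381% of all promoters), TCAAGGTCA of the ERR factors (0.423%), TGATGCAA of CHOP and ATF4 (0.895%) or GTCACGTG of TFEB and MITF (2.25%).

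Of the CIDE genes, Cidea fell most of all 10. Cidea (NM_007702, 5 exons on chromosome 18) read 17006, 21051, 18234, 17190.4 and 17369 in Control and 4602, 5004, 5710, 4722 and 10995 in AdCKO libraries. All AdCKO libraries lay below the Control range, and replicate 5 stood well above the other 4. The means were 18170 ± 1678 and 6207 ± 2711 (mean ± SD of 5 mice each), and the AdCKO mean was 34.2% of Control (log2 fold change -1.63, SE 0.21, limma adjusted p = 2.57e-05). Without AdCKO replicate 5 the log2 fold change was -1.86, and without AdCKO replicates 1, 2 and 4 it was -1.19 (limma adjusted p = 0.00122). In Control iBAT Cidea had rank 16 of all genes by level per kb, above the other 9 genes in every library. In AdCKO iBAT it had rank 26.

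Of 8 brown adipocyte markers 5 were lower (Ucp1, Cox7a1, Cox8b, Otop1 and Ebf2) and none higher. The other 3 were not called, with log2 fold changes of 0.90 for Dio2, -0.06 for Elovl3 and 0.09 for Zic1. The 8 genes, of which Ucp1 and Cox8b were the most abundant, gave sums of 44406 to 68508 in Control and 13946 to 28601 in AdCKO. AdCKO replicates 5, 3 and 2 had the highest sums, at 28601, 27798 and 20425, and in the same order the highest Cidea, at 10995, 5710 and 5004. Replicates 1 and 4 ran the other way, with sums of 19809 and 13946 and Cidea at 4602 and 4722. The part of these cells in the level of Cidea was not tested.

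Cidec (NM_001301295, mm9 chr6:113374628-113385754, minus strand, 6 exons), the CIDE protein of the large droplets of white fat, read 7863, 7899, 6932, 6338 and 6812 in Control and 5348, 5998, 3148, 5213 and 3894 in AdCKO libraries. The groups did not overlap, and replicates 3 and 5 were the lowest of AdCKO. The mean was 65.8% of Control (log2 fold change -0.64, SE 0.16, limma adjusted p = 0.0044). The call was lost without Control replicate 1, Control replicate 2 or AdCKO replicate 5, with adjusted p up to 0.0126. Without the 3 AdCKO libraries rich in muscle transcripts its change was -1.03 on the log2 scale (limma adjusted p = 0.00016).

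Within a library, Cidec was 0.369 to 0.462 of Cidea in Control. In AdCKO replicates 1, 2 and 4 the ratio was 1.16, 1.2 and 1.1, so that Cidec exceeded Cidea, while in replicate 3 it was 0.551 and in replicate 5, at 0.354, it lay below the Control range. The mean difference of 1.00 on the log2 scale had an exact permutation p of 0.048 and did not pass after adjustment over 5 ratios (adjusted p = 0.079). Without AdCKO replicate 5 it was 1.28 (exact permutation test, adjusted p = 0.013). Of the 10 omissions of a single library the other 9 left it not past 0.05, with adjusted p up to 0.12 by the same test. The ratios above 1 were those of the AdCKO libraries rich in muscle transcripts, and the ratio was not tested without those libraries.

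**Figure D3:**
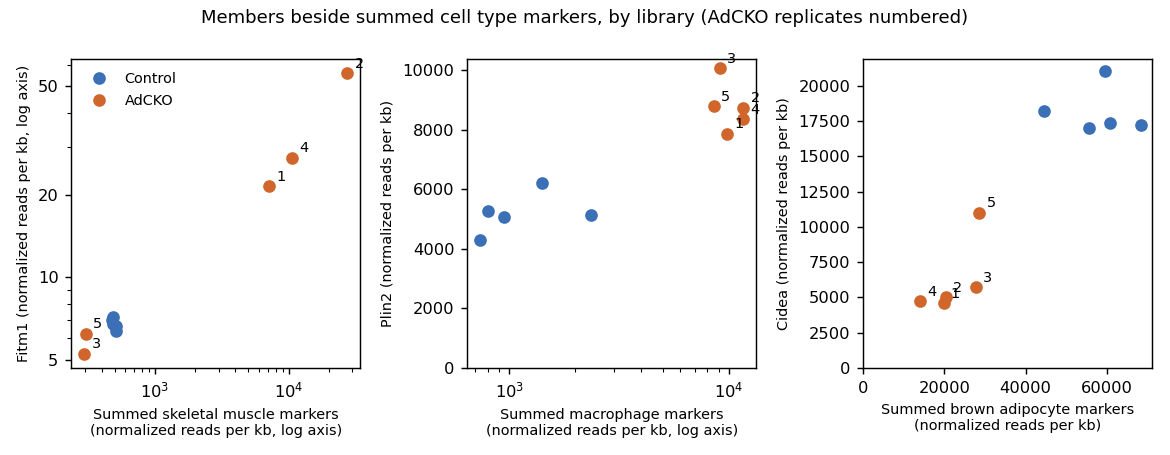
Fitm1, Plin2 and Cidea against the summed skeletal muscle, macrophage and brown adipocyte markers of the same library, all in normalized reads per kb (log axes where labelled), 1 point per library and AdCKO replicates numbered. Fitm1 is above its Control values only in AdCKO replicates 1, 2 and 4, which have muscle sums of 7147 to 27432. Plin2 and the macrophage sum separate the groups without following each other within AdCKO, and Cidea of AdCKO replicate 5 stands apart at 10995.

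The FIT genes differed widely in level. Fitm2 (NM_173397), the FIT protein of fat, was at 795.0 ± 64.6 in Control and 541.2 ± 48.2 in AdCKO (mean ± SD of 5 mice each), a log2 fold change of -0.55 (SE 0.08, with 8.37e-05 as the adjusted p by limma). Control libraries spanned 694 to 851 and AdCKO libraries 465 to 587, without overlap.

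Fitm1 (NM_026808), the FIT protein of skeletal muscle and heart, was low in Control iBAT, at 6.78, 6.65, 6.998, 7.17 and 6.40. In AdCKO libraries it read 21.6, 55.8, 5.26, 27.4 and 6.23. Replicates 1, 2 and 4 were high, and replicates 3 and 5 lay below every Control library. The log2 fold change of 1.17 (SE 0.50) was not called (limma adjusted p = 0.057; exact permutation test of the means, p = 0.17). The 3 libraries with high Fitm1 are those with high skeletal muscle genes, in the same order: muscle sums were 7147, 10519 and 27432 where Fitm1 was 21.6, 27.4 and 55.8. In replicates 3 and 5 both the muscle sum and Fitm1 were below all Control libraries. The low sum came mainly from Myl1, at 138 and 159 there against 330 to 397 in Control, and does not stand for the whole list. Acta1 went the other way, at 93.3 and 74.5 in replicates 3 and 5 against 39.4 to 56.1 in Control. Without replicates 1, 2 and 4 the mean of Fitm1 fell under the minimum of 10 in both groups and it was not tested. The ratio of Fitm1 to Fitm2 was 0.00773 to 0.0101 in Control and 0.00997 to 0.0971 in AdCKO libraries, with overlap. It is given as a description, since Fitm1 reached the minimum level through the AdCKO libraries alone.

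Bscl2 (NM_001136064, mm9 chr19:8911957-8923173, plus strand), the seipin gene, whose loss in people and mice causes lipodystrophy, varied least of the called genes. It lay between 1207 and 1369 in Control libraries but between 794 and 925 in AdCKO, without overlap. Means were 1318 ± 64.4 and 862 ± 58.8 (mean ± SD of 5 mice each), and the log2 fold change was -0.61 (SE 0.07, with 8.36e-06 as the adjusted p by limma). Its AdCKO mean was 65.4% of Control, close to the 65.3% of Plin1, 65.8% of Cidec and 68.1% of Fitm2. Taken over whole gene spans, introns included, Bscl2 overlaps Gng3 on the opposite strand over 1780 bases in the mm9 annotation. By the same measure Cidea, Fitm1, Fitm2 and Plin4 overlap other genes over 540, 318, 39 and 6 bases. How much of this lies in counted exons was not measured. Strand-specific counting is not stated, so any reads counted in these overlaps cannot be assigned to a strand.

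By level per kb the order in Control iBAT was Cidea, Cidec, Plin1, Plin2, Plin4, Bscl2, Plin5, Fitm2, Plin3 and Fitm1. Neighbours whose ranges overlapped were Cidec and Plin1, Plin4 and Bscl2, and Bscl2 and Plin5. In AdCKO iBAT the order was Plin2, Cidea, Cidec, Plin1 and then as before. Ranges of Plin2 and Cidea, of Cidea and Cidec, of Cidec and Plin1, and of Plin5 and Fitm2 overlapped there. Plin2 was above Cidea in 4 of 5 AdCKO libraries, the exception being replicate 5.

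Library scaling bears on most of the lower calls. Multiplied by counted length and summed, normalized reads came to 7615403 to 8171138 in Control and 5419800 to 5843024 in AdCKO libraries. With library totals made equal, the median log2 fold change of all tested genes rose to 0.47 and the split of calls went from 47.7% higher and 52.3% lower to 86.5% and 13.5%. Cidea (-1.15, limma adjusted p = 0.0002) and Plin5 (-0.44, adjusted p = 0.0008) were then the only genes of the 10 called lower, and Plin2 was higher by 1.24. That scaling multiplies all genes of a library by the same factor. Read relative to the median of all genes, the changes therefore return by arithmetic to nearly those above, with -0.61 for Plin1, -0.62 for Cidec and 0.77 for Plin2. This closeness is no separate support for the calls. Quantile normalization left Plin5 (-0.66), Cidea (-0.72), Fitm2 (-0.35) and Bscl2 (-0.28) lower and Plin2 higher (1.65), and turned Plin1 (0.21, limma adjusted p = 0.033), Cidec (0.18, adjusted p = 0.39) and Plin4 (0.05, adjusted p = 0.76) to values above 0 that were not called. Of 11241 genes tested under it, 3588 were lower and 2496 higher. Relative to the median of all genes Plin1 was then at 0.30, Cidec at 0.27, Plin2 at 1.75, Plin5 at -0.57 and Cidea at -0.63. Plin2, Plin5 and Cidea kept direction and call under all 9 alternatives that used every library.

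**Figure D4:**
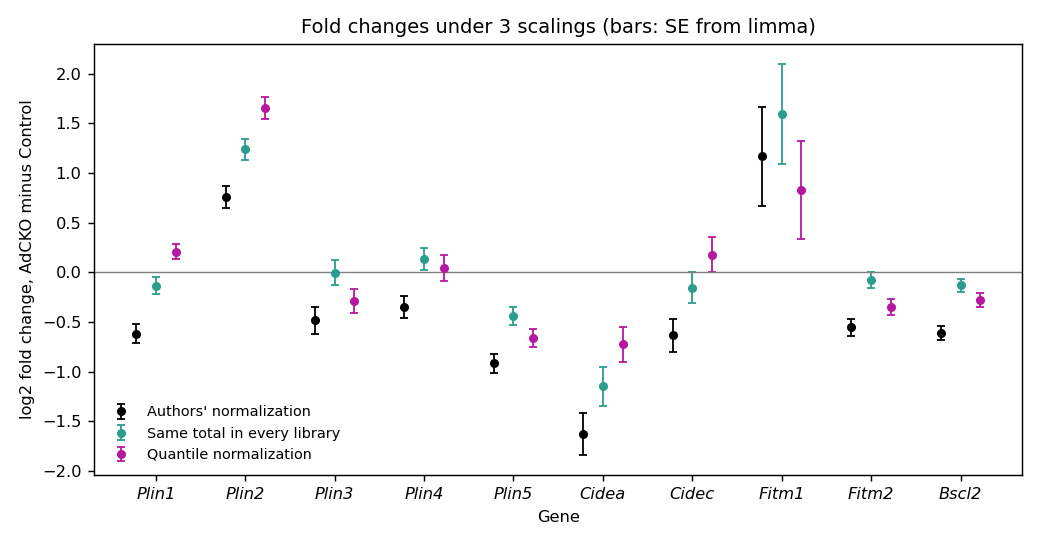
Log2 fold change (AdCKO minus Control) of the 10 genes under the authors' normalization, with equal library totals and with quantile normalization, with bars for the SE from limma. Plin2 lies above 0 and Plin5 and Cidea below 0 under all 3, while Plin1, Cidec and Plin4 change sign under at least 1.

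Around these genes, 27 further genes of the droplet surface and its lipases were listed, and 26 were tested. Of these 13 were lower and 2 higher, with a median log2 fold change of -0.29. Over all tested genes 28.0% were lower and 25.6% higher. Hsd17b13 was under the minimum level in both groups. The lower genes included the lipases of the droplet: Pnpla2 (adipose triglyceride lipase) went from 12954 ± 1038 to 5554 ± 786 (log2 fold change -1.23, limma adjusted p = 2.01e-06), Lipe (hormone-sensitive lipase) from 8193 ± 891 to 3592 ± 569.9 (-1.20) and Mgll (monoglyceride lipase) from 3518 ± 280.6 to 1930.1 ± 103.8 (-0.86). Abhd5, the lipase coactivator that PLIN1 and PLIN5 hold, changed by -0.39 and G0s2, a lipase inhibitor, by -0.56. Pnpla3 had the largest decrease of the list at -2.54. Dgat2, which makes triglyceride at the droplet, was at -1.45, Nsdhl at -1.17, Acsl3 at -0.82, Cideb at -0.77, Ldah (listed as 1110057K04Rik) at -0.69, Vps13c at -0.57 and Pcyt1a at -0.33.

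The higher genes of this list were Hilpda and Spg20. Hilpda, an inhibitor of adipose triglyceride lipase that responds to hypoxia and fatty acids, went from 28.8 ± 2.90 to 59.3 ± 5.70 (SD, n = 5; log2 fold change 1.02, limma adjusted p = 1.26e-06). Spg20, whose product spartin binds droplets, went from 76.8 ± 1.89 to 135.8 ± 17.9 (0.81, limma adjusted p = 4.12e-06). The other 11 tested genes of the list were not called. With the same total in every library 6 of the list were lower and 11 higher. Of all 11413 genes tested under that setting, 1094 were lower and 7001 higher.

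Of 15 listed transcription regulators of fat and stress genes, 6 were lower and 5 higher, where 28.0% of all tested genes were lower and 25.6% higher. Pparg, the regulator of fat cell genes that include several perilipins, was at 1197 ± 153 in Control and 870.02 ± 149 in AdCKO (log2 fold change -0.47, limma adjusted p = 0.0054), with overlapping groups. Cebpa (-1.11), Prdm16 (-1.29), Srebf1 (-0.71), Nr1h3 (-0.37) and Ppard (-0.42) were also lower. Higher were Ddit3 (2.70) and Atf4 (1.22) of the stress response, Ppargc1a (2.24), and Tfeb (0.51) and Mitf (0.53), which regulate lysosomal genes. Ppara (-0.54), Rxra (-0.28), Esrra (-0.52) and Cebpb (-0.54) were not called.

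Profiles most like those of the called genes were sought by the root mean square difference of log2 values over the 10 libraries, each gene taken relative to its Control mean. For Plin1 they were Sirt2 (0.06) and Spr (0.06), for Plin5 Agpat3 (0.06) and Amacr (0.08), and for Bscl2 Tgfbrap1 (0.06) and E2f5 (0.06). For Fitm2 they were D17Wsu92e and Stk16 (0.07 each), for Plin3 Pigyl (0.08), and for Cidec Adi1 and Asrgl1 (0.12 each). Cidea had no match as close as these: Clic5 was at 0.15 and Eci1 at 0.17. For Plin2 the nearest were Myef2 and Fbxo27 (0.10 each). Among the 10 themselves Bscl2 and Fitm2 were the closest pair (0.12), and Plin2 was 0.83 from its nearest, Plin4. Fitm1, which was not called and is added here after its values were seen, lay closest to Trim54 and Tmod4 (0.11 each), genes of the muscle sarcomere.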

How the data were processed

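Reads were aligned by the authors with STAR (mm9), assigned to exons by iRNA-seq and normalized by DESeq2. The deposited values are a signal per kb of exon after normalization, not counts. None is 0, and no steps of whole reads show among low values, so no count test was run and depth before normalization is unknown. The authors' deposited fold changes, adjusted p-values and lists of called genes were not used. Exon numbers printed beside a RefSeq transcript are those of the coding transcript in the mm9 gene annotation nearest to it in counted length. The 2 can differ, as for Plin1 with 1916 and 1860 bases. Files give start positions counted from 0, printed here from 1.

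Tests used limma 3.58.1 in R 4.3.3 on log2(value + 1), with an intensity trend, two-sided, over 11244 genes with a mean of at least 10 in Control or AdCKO. The threshold was an adjusted p of 0.01. Differences of means, 5 ratios and 5 shares of single libraries were compared by exact permutation over samples, with a threshold of 0.05. Scripts were tested on simulated data. The genes and lists were chosen with earlier results of these data known. Named are the 10 genes, Crls1, called or most abundant genes of the lists, and the 2 nearest profiles of each called gene, of which 1 is not reported here. Named after their values were seen are Hsd17b13, Myl1, Acta1, the uncalled regulators and brown adipocyte markers, and the nearest profiles of Fitm1. The motifs TATAA and CCAAT, the omission of AdCKO replicates 1, 2 and 4, and the alternatives for the perilipin sum were chosen after seeing the data. Mice are separate, and replicate numbers were not taken to pair them. Alternatives were other pseudocounts, filters, scalings, no trend, a replicate block, a threshold of 0.05 and leaving out each library. Python 3.11.15 and matplotlib 3.10.9 drew the figures.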

Additional observations from a re-analysis of the deposited data

Results flagged for a closer look

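In groups of 5 libraries, 6 of 40 values, ratios and shares had a highest or lowest library whose gap to the nearest was large against the range of the group (Dixon's criterion at 95%, which chance passes in about 1 of 20). Cidea was at 10995 in AdCKO replicate 5, against 4602 to 5710 in the other AdCKO libraries. Plin5 was at 913.1 in Control replicate 3, against 1158 to 1229. The ratio of Cidec to Cidea was 0.462 in Control replicate 1, against 0.369 to 0.392. AdCKO replicate 3 accounts for the other 3, which share their values: its ratio of Plin2 to Plin1 was 2.78 against 1.78 to 2.02, its share of Plin2 in the perilipin total 64.54% against 54.53% to 57.38%, and its share of Plin1 23.25% against 28.45% to 30.57%. Without that library the log2 difference of the Plin2 to Plin1 ratio was 1.26.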

How the results depend on the processing

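Scaling moved most values. With the same total in every library, called genes numbered 7001 higher and 1094 lower, of the 10 genes 2 were lower, of the other droplet genes 6 lower and 11 higher, and of the regulators 2 lower. The log2 fold changes were -0.14 for Plin1, -0.003 for Plin3, -0.15 for Cidec, -0.074 for Fitm2 and -0.13 for Bscl2, none called, and Plin4 turned to 0.13. With quantile normalization 4 of the 10 genes were lower and 4 other droplet genes higher, where of 11241 tested genes 3588 were lower and 2496 higher. Plin3 was then at -0.29 and not called, and Plin1 (0.21), Plin4 (0.048) and Cidec (0.18) changed sign. The summed perilipin level, at a log2 fold change of 0.026, was higher by 0.51 with the same total and by 0.83 with quantile normalization (exact permutation p = 0.0079 each). Plin3 (-0.48) missed 0.01 without a filter (limma adjusted p = 0.0107) and without the trend (0.0102), and was at -0.31 without AdCKO replicates 1, 2 and 4. Plin4 (-0.35) passed a threshold of 0.05.

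When single libraries were left out, the log2 fold change ran from -0.58 to -0.38 for Plin3 and from -0.73 to -0.50 for Cidec, which lost the call in 7 and 3 of 10 cases. The log2 ratio of Fitm1 to Fitm2 ran from 1.32 to 2.08, that of Cidec to Cidea from 0.84 to 1.28, and the change in the share of Plin4 from -2.91 to -1.88 percentage points. The perilipin sum ran from -0.0011, the 1 change of sign (without Control replicate 1), to 0.0725. The ratio of Fitm1 to Fitm2 is a description, as Fitm1 reached the minimum level in AdCKO alone. The other genes kept direction and call in all 10 cases.

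Same-numbered libraries did not deviate together (correlations from -0.268 to 0.098), and the labels name no pairing, so the numbers were not used as pairs. Such correlations cannot exclude a pairing. With the replicate number as a block, 2838 genes were lower and 2592 higher, and the same 10-gene counts of 7 lower and 1 higher were found. Without counts, depth and counting error are unknown. edgeR and DESeq2 on whole reads could not be run.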
